A study of Mus musculus with 4 samples.

Results

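NRF2 and its antioxidant programme were followed in the liver of wild-type mice (WT) and of SREBP1c knockout mice (KO). SREBP1c, a product of Srebf1, is the transcription factor through which insulin raises fatty acid synthesis. The genes are Nfe2l2, which encodes NRF2, its inhibitor Keap1, and 8 targets outside the glutathione S-transferase family: Nqo1, Gclc, Gclm, Hmox1, Srxn1, Txnrd1, Gsr and Osgin1. They were taken by symbol, for their function and not for a measured value, and are 10 of the 23920 genes in the deposited table, on 16 of its 33170 transcript rows. All 10 passed the filter on low values, a mean of at least 1 FPKM (fragments per kilobase of transcript, scaled to the mapped fragments of the library). The animals of both groups were C57BL/6 males of 12 weeks, sampled after a fast of 24 h and 12 h of refeeding, and differed by genotype, SREBP1c WT or SREBP1c KO. Each group had 2 libraries made from 1 µg of total liver RNA. The allele, the tissue range of the deletion and the use of separate animals are details not given in the sources used here, and p-values measure the spread between these libraries, which may be technical.

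NRF2 is a transcription factor that KEAP1 holds in the cytoplasm and presents to a CUL3 ubiquitin ligase, so that it is degraded. Electrophiles and oxidants modify cysteines of KEAP1, NRF2 escapes, enters the nucleus, pairs with a small MAF protein and binds antioxidant response elements. Its targets make and regenerate glutathione, reduce thioredoxin and peroxiredoxins, and detoxify quinones and heme, and the liver, which handles most foreign compounds, is a major site of this programme.

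Promoters of the genes are shown to place the response element that NRF2 binds. RefSeq promoter entries of the GRCm38.p6 build (mm10), from 250 bases before to 50 bases after a start site, were found for 7 of the 10 genes, in 9 entries. They were searched on both strands for TGACNNNGC, the core of the antioxidant response element, which was found in 4 of these 9 entries and in 12.4% of all 32851 promoter entries. The matches, in capitals, are given on the gene's strand. Distances are from the start site of the entry, which for Gclm and Txnrd1 is not the gene start given below. Txnrd1 has 3 entries, of which only that at chr10:82858956-82859255 held a match. It lies inside the gene, which spans 82833951 to 82897724.
Nfe2l2, chr2:75704870-75704913, minus strand, match starting 240 bases before the start: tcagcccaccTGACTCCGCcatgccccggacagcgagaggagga
Gclm, chr3:122245398-122245456, plus strand, match on the opposite strand, 134 bases before: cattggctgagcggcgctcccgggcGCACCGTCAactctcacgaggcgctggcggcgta
Txnrd1, chr10:82859089-82859147, plus strand, match on the opposite strand, 92 bases before: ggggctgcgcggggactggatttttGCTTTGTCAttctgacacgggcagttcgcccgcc
Srxn1 held a match on the opposite strand, GCTAGGTCA, that begins 28 bases after its start. The sterol regulatory element TCACNCCAC and the E-box CACGTG, letters that SREBP1c can bind, were in 0 of the 9 entries, against 1.24% and 7.15% of all entries. With shares this low, 0 matches in 9 entries do not set these genes apart from others. These matches describe letters in short windows and show no binding.

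The targeted gene was measured first. Srebf1 had 63.7 and 58.2 FPKM in WT replicates 1 and 2 and 8.63 and 6.97 FPKM in KO replicates 1 and 2 (log2 difference −2.82, limma adjusted p = 0.00172). The call was lost without a filter on low values (adjusted p = 0.104), without WT replicate 1 (0.136) and without WT replicate 2 (0.0923), with differences of −2.82, −2.76 and −2.88. Of the hepatocyte markers 13 of 14 had a mean of at least 1 FPKM. Alb was listed at 0 in every library, so a 0 in this table is given only as a listed value. The KO libraries parted in the 20 acute phase and metallothionein genes. In KO replicate 2 all 20 lay above both WT libraries (41.6% of all genes did so), with a median log2 difference of 0.92 from the WT mean. In KO replicate 1, 15 lay below both (32.8% of all genes) and 5 above both (39.1%), with a median of −0.40. Mt2, among the 5 above both in KO replicate 1, had 3.74 and 3.29 FPKM in WT, 8.67 in KO replicate 1 and 230.3 in KO replicate 2. Its log2 differences from the WT mean were 1.10 in KO replicate 1 and 5.68 in KO replicate 2, so it is no typical gene of the list. Each KO library is also given separately. Low FPKM values implied depths of 20.3 to 22.4 M (mega) fragments per library, at which the lowest of the genes, Nqo1, rests on about 171 to 308 fragments and Osgin1 on about 5890 to 16878.

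No NRF2 gene passed the test between KO and WT (limma on log2(FPKM + 1) of summed rows, adjusted over 9820 genes, threshold 0.05). In all, 7 of the 9820 genes passed, or 0.0713%, and at an unadjusted p under 0.05 the count was 1 of the 10 genes against 7.75% of all genes. A negative log2 difference was found in 7 genes (45.4% of all genes) and a positive one in 3, with a median of −0.10 against 0.02 over all genes tested. The groups overlapped for 8 genes. The KO pair lay wholly below the WT pair for Osgin1 alone and wholly above it for Keap1 alone, placings that 16.4% and 22.4% of all genes had. In bulk tissue, fewer cells of a type and less RNA per cell cannot be told apart. No exact permutation test was run, since with 2 libraries a side its smallest two-sided p is 0.333.

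The KO libraries differed from each other. KO replicate 2 lay below both WT libraries for 8 of the 10 genes (33.9% of all genes did so) and above both for Hmox1 and Keap1 (41.6% of all genes). KO replicate 1 lay below both WT libraries only for Osgin1 (32.8% of all genes) and above both for Gsr, Keap1 and Nqo1 (39.1%). On the log2 scale, KO replicate 1 had a median difference of 0.00 from the WT mean and KO replicate 2 one of −0.29. For 5 genes (Gclc, Gclm, Gsr, Hmox1 and Nqo1) the KO libraries lay on opposite sides of the WT mean. The difference between KO libraries has 1 library on each side and was not tested.

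**Figure D1:**
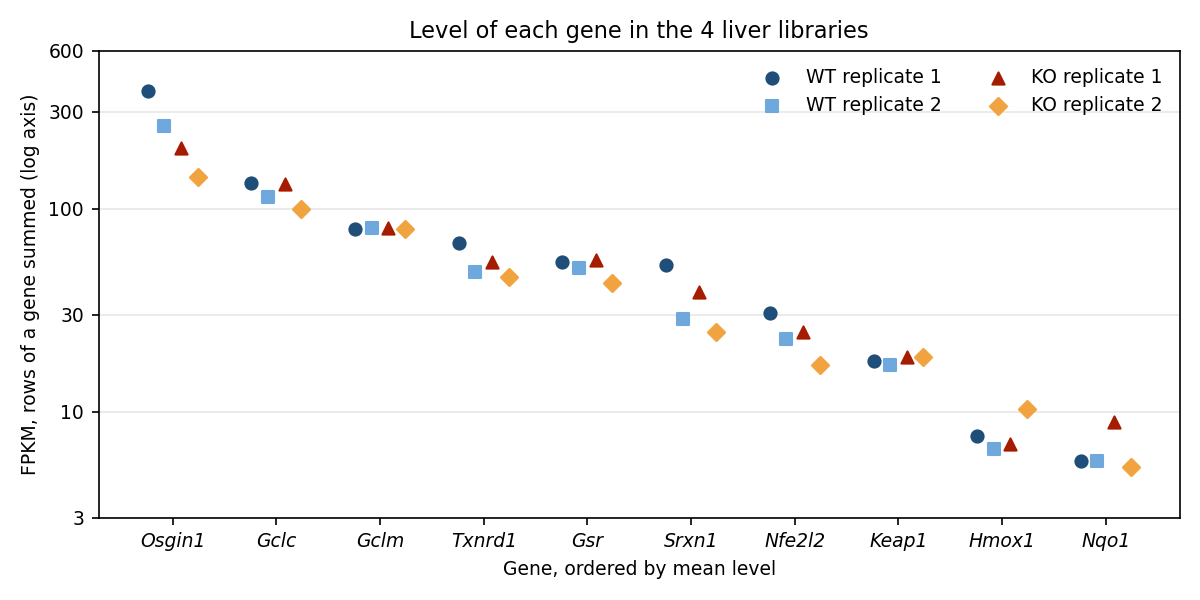
FPKM (log axis, transcript rows of a gene summed) of each of the 10 genes in the 4 libraries, 1 point per library, ordered by mean level. Osgin1 stands highest, with its WT points at 379 and 256 above its KO points at 199 and 143, while the 4 Gclm points lie between 79.4 and 80.5.

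The levels spanned from Osgin1, with a mean of 244 FPKM over the 4 libraries, to Nqo1, with 6.41. Gclc followed Osgin1 with 120.1 FPKM, Gclm had 80.0, Txnrd1 54.3, Gsr 51.2, Srxn1 36.3, Nfe2l2 23.7, Keap1 18.0 and Hmox1 7.84. FPKM is scaled to transcript length, so these levels can be set side by side. The ranges of neighbours did not overlap between Osgin1 and Gclc, Gclc and Gclm, Gclm and Txnrd1, or Keap1 and Hmox1. They overlapped between Txnrd1 and Gsr, Gsr and Srxn1, Srxn1 and Nfe2l2, Nfe2l2 and Keap1, and Hmox1 and Nqo1, although Gsr was above Srxn1 and Srxn1 above Nfe2l2 within each of the 4 libraries. The order of the other pairs changed from library to library.

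The regulator came first. Nfe2l2 (chromosome 2, 75675513 to 75704663, a single row) had 30.5 and 22.8 FPKM for WT against 24.6 and 16.9 FPKM for KO. KO replicate 1 fell between the WT libraries and KO replicate 2 was the lowest of all, so the groups overlapped. The means were 26.7 ± 5.49 and 20.7 ± 5.42 FPKM (SD, n = 2 each), and the log2 difference was −0.36 (95% interval −0.88 to 0.17, limma adjusted p = 0.734). With KO replicate 2 left out it was −0.10 (adjusted p = 0.925), and with KO replicate 1 left out −0.61 (adjusted p = 0.12), short of the threshold in both cases. The 3 genes whose centred log2 profile over the 4 libraries lay closest to that of Nfe2l2 were Gm5506 (Euclidean distance 0.054), Ndufaf4 (0.060) and 1700017B05Rik (0.077). They were picked as the smallest distances of all genes tested. The median over all genes was 0.61. Among the NRF2 genes Txnrd1 was the closest, at 0.25 (rank 143), and Hmox1 the farthest, at 0.95 (rank 9209).

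Keap1, the inhibitor (chromosome 9, 21229730 to 21239332), had 17.8 and 16.9 FPKM for WT against 18.6 and 18.5 FPKM for KO over its 4 rows. The KO libraries were above the WT libraries by a small margin, with a log2 difference of 0.09 (95% interval −0.15 to 0.33, limma adjusted p = 0.863). The row NM_001110307 carried 79.5% of the level and went the other way in KO replicate 2, with 14.2 and 14.2 FPKM for WT against 15.7 and 13.0 for KO. The row NM_001110305 was highest in KO replicate 2, with 1.15 and 0.93 FPKM for WT against 1.08 and 2.42 for KO. How fragments were shared between rows is not given in the sources used here, and Keap1 exons overlap the antisense gene Gm16754, from which unstranded reads could not be separated.

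Partners and other regulators of NRF2 were 22 listed genes, of which 19 were tested: 9 had a positive and 10 a negative difference, with a median of −0.03. None passed in limma, and 1 of the 19 had an unadjusted p under 0.05 (7.75% of all genes). That gene was Nfe2l1, which encodes NRF1, a related factor that controls proteasome genes, with 16.3 and 17.8 FPKM for WT against 21.0 and 31.1 for KO (log2 difference 0.56, limma adjusted p = 0.57). Syvn1, an endoplasmic reticulum ubiquitin ligase, had 36.9 and 33.7 for WT against 39.9 and 68.8 for KO. In both genes KO replicate 2 was the highest library. Bach1, a repressor that competes for the same elements, had 5.75 and 4.56 FPKM for WT against 4.20 and 4.14 for KO. Cul3 had 19.1 and 17.8 for WT against 16.0 and 17.2 for KO, named after its values were seen because it is the ligase scaffold that KEAP1 recruits.

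Glutathione synthesis begins with glutamate-cysteine ligase, made of a catalytic subunit (Gclc) and a modifier subunit (Gclm). Gclc (chromosome 9, 77754535 to 77794489) had 133 and 115 FPKM for WT against 133 and 99.5 FPKM for KO. KO replicate 1 fell between the WT libraries, close to WT replicate 1, and KO replicate 2 lay below both. The log2 difference of −0.10 (95% interval −0.52 to 0.32, limma adjusted p = 0.917) turned to 0.11 without KO replicate 2 and to 0.01 without WT replicate 1.

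Gclm (chromosome 3, 122245487 to 122267215) was the steadiest of the genes, with 79.6 and 80.5 FPKM for WT against 80.5 and 79.4 FPKM for KO. Its highest library was 1.01 times its lowest. The log2 difference was 0.00 with a 95% interval of −0.25 to 0.25 (limma adjusted p = 0.997). The position of KO replicate 2 below both WT libraries therefore rests on a difference from the WT mean of only −0.01. Gclm exons overlap Gm17494 on the opposite strand and the pseudogene Gm6061. The ratio of Gclc to Gclm FPKM was 1.67 and 1.42 for WT against 1.65 and 1.25 for KO, so it varied with Gclc and its groups overlapped.

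Other genes of glutathione synthesis and supply gave 13 tested of 17 listed, 8 positive and 5 negative, with a median of 0.05. None passed in limma, also none at an unadjusted p under 0.05. Chac1, which breaks down glutathione and is induced in the integrated stress response, had 0.62 and 1.13 FPKM in WT, 0.82 in KO replicate 1 and 4.36 in KO replicate 2. It is counted among the 8 positive genes, but reached a mean of 1 FPKM only through KO replicate 2. Slc1a4, a neutral amino acid transporter, had 1.66 and 1.17 for WT against 1.68 and 2.41 for KO, and Ggt6, of the gamma-glutamyltransferase family, had 13.3 and 14.0 for WT against 13.3 and 10.7 for KO. Gss, the second enzyme of synthesis, is named for that role after its values were seen and had 70.6 and 61.3 for WT against 68.7 and 58.9 for KO.

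Gsr, Txnrd1 and Srxn1 return oxidised thiols to the reduced state. Gsr (chromosome 8, 33653238 to 33698162), the reductase of oxidised glutathione, had 54.5 and 51.1 FPKM for WT against 55.7 and 43.3 FPKM for KO. The KO libraries lay on either side of the WT pair. The log2 difference was −0.10 (95% interval −0.46 to 0.26, limma adjusted p = 0.898) and turned to 0.08 without KO replicate 2.

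Txnrd1 (chromosome 10, 82833951 to 82897724), the cytosolic selenoprotein that reduces thioredoxin, had 67.5 and 49.0 FPKM for WT against 54.6 and 46.1 FPKM for KO over its 4 rows. WT replicate 1 was high, the other libraries lay close together and the groups overlapped. Its log2 difference was −0.19 (95% interval −0.63 to 0.25, limma adjusted p = 0.838) and turned to 0.03 without WT replicate 1. The row NM_001042513 carried 85.8% of the level, with 60.0 and 40.5 FPKM for WT against 47.5 and 38.2 for KO. The second row, NM_015762, was flat by comparison, with 6.79 and 7.98 for WT against 6.81 and 6.76 for KO.

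Srxn1 (chromosome 2, 152105524 to 152111376) encodes sulfiredoxin, which rescues hyperoxidised peroxiredoxins. It had 52.9 and 28.7 FPKM for WT against 38.9 and 24.8 FPKM for KO. KO replicate 1 lay between the WT libraries, so the groups overlapped. The WT libraries alone differed by 0.86 on the log2 scale, more than the groups did (−0.32, 95% interval −1.11 to 0.48, limma adjusted p = 0.852). Without KO replicate 2 the difference was 0.00, without KO replicate 1 it was −0.63, and without WT replicate 1 it turned to 0.11. Of the 10 genes, 5 differed more between the WT libraries than between the groups, and 8 differed more between the KO libraries.

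**Figure D2:**
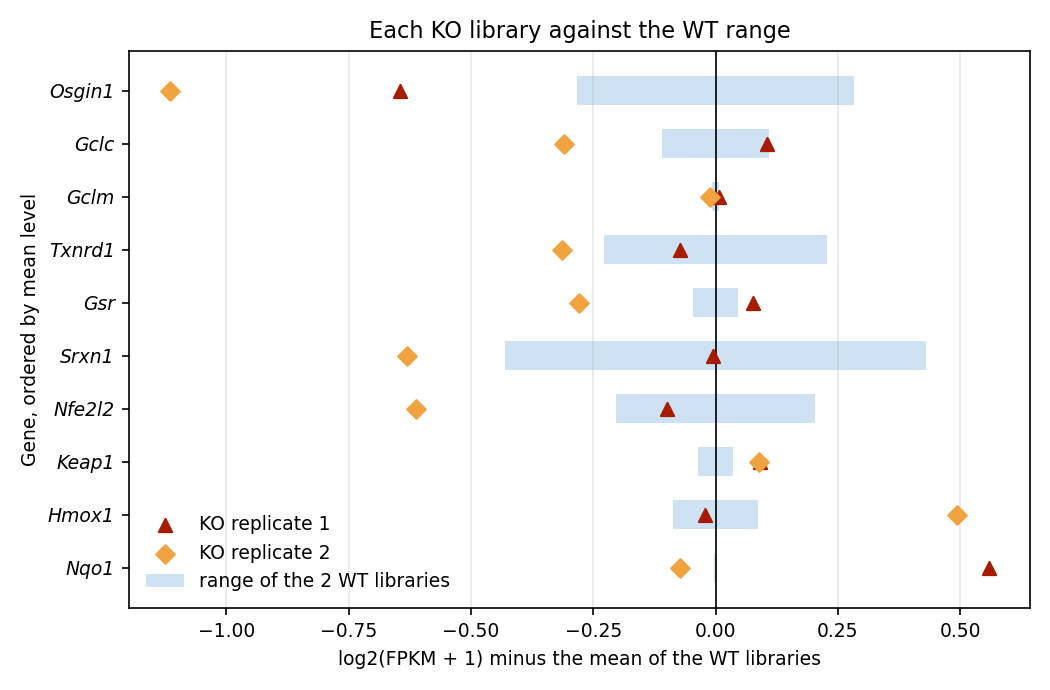
Difference of each KO library from the mean of the WT libraries on the log2(FPKM + 1) scale for the 10 genes, with the range of the 2 WT libraries as a pale bar. KO replicate 1 (triangles) lies within or near the WT bar except for Osgin1 (−0.64) and Nqo1 (0.56), while KO replicate 2 (diamonds) lies left of it for 8 genes, by 0.01 from the mean for Gclm and by 0.07 for Nqo1, and right of it for Hmox1 and Keap1.

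The thioredoxins and peroxiredoxins that these reductases serve were 16 genes, all tested, 11 positive and 5 negative, with a median of 0.05. None passed in limma and none had an unadjusted p under 0.05. Sesn2, a sestrin induced by stress, had 1.18 and 1.47 FPKM for WT against 1.69 and 2.07 for KO. The methionine sulfoxide reductases Msra and Msrb1 were also higher in both KO libraries. Msra had 119 and 129 FPKM for WT against 146 and 144 for KO, and Msrb1 258 and 282 for WT against 299 and 321 for KO. Of the 16 genes, 4 lay wholly above the WT pair (22.4% of all genes) and 2 wholly below it (16.4%). In KO replicate 1, 10 lay above both WT libraries (39.1% of all genes) and 3 below both (32.8%). For KO replicate 2 these counts were 6 above both (41.6%) and 8 below both (33.9%). Of the glutathione peroxidases and glutaredoxins 11 of 14 were tested, 4 positive and 7 negative, with a median of −0.02. None passed in limma, and 2 of the 11 had an unadjusted p under 0.05 (7.75% of all genes). These were the secreted peroxidase Gpx3, with 3.76 and 4.25 for WT against 2.36 and 2.55 for KO, and the glutaredoxin Glrx, with 54.0 and 48.8 for WT against 42.4 and 32.2 for KO. Gpx4, which reduces lipid peroxides, had 294 and 306 FPKM for WT against 426 and 329 for KO.

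Superoxide and peroxide removal gave 7 tested genes, 3 positive and 4 negative, with a median of −0.01, none past the limma threshold and none at an unadjusted p under 0.05. Catalase (Cat) had 1053 and 1136 FPKM for WT against 928 and 885 for KO, lower in both KO libraries (log2 difference −0.27, limma adjusted p = 0.701). The extracellular superoxide dismutase Sod3 had 8.93 and 10.5 for WT against 11.3 and 14.7 for KO. Nqo2, a relative of Nqo1, had 25.8 and 24.5 for WT against 24.2 and 20.7 for KO.

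Nqo1 (chromosome 8, 107388225 to 107403205) encodes the NAD(P)H quinone dehydrogenase that is the usual readout of NRF2 activity. It had 5.69 and 5.71 FPKM for WT against 8.86 and 5.37 FPKM for KO. KO replicate 1 was 1.56 times the WT mean, and KO replicate 2 was 0.942 times it, so the groups overlapped. Between the groups the log2 difference was 0.24 (95% interval −0.27 to 0.75, limma adjusted p = 0.82). It was 0.56 without KO replicate 2 (adjusted p = 0.171) and turned to −0.07 without KO replicate 1.

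Hmox1 (chromosome 8, 75093618 to 75100593) encodes heme oxygenase 1, which opens the heme ring and is also expressed in liver macrophages. It had 7.55 and 6.57 FPKM for WT against 6.92 and 10.3 FPKM for KO. The 3 lower libraries lay together and KO replicate 2 was 1.46 times the WT mean. A log2 difference of 0.24 was fitted (95% interval −0.22 to 0.69, limma adjusted p = 0.803). It became −0.02 without KO replicate 2 and 0.49 without KO replicate 1 (adjusted p = 0.147). Kupffer cell markers were also high in KO replicate 2: 10 of the 11 tested lay above both WT libraries in KO replicate 2 (41.6% of all genes). In KO replicate 1, 2 of 11 lay above both (39.1% of all genes) and 6 of 11 below both (32.8%). None passed between the groups in limma, and 1 of the 11 had an unadjusted p under 0.05 (7.75% of all genes). Their summed level was 177 and 147 FPKM for WT against 151 and 247 for KO, and none was listed at 0. Acute phase genes were high in the same library. Erythroid markers, a source of heme, summed to 893 and 296 FPKM for WT against 272 and 545 for KO. The part of these 3 lists in the Hmox1 value was not tested. Hmox2, the constitutive enzyme, is named for that role after its values were seen and had 37.0 and 37.2 FPKM for WT against 35.2 and 39.2 for KO.

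Osgin1 (chromosome 8, 119425882 to 119446257, a single row) encodes oxidative stress induced growth inhibitor 1. It was the most abundant of the genes and had the lowest p among them. The groups did not overlap: WT had 379 and 256 FPKM, and KO had 199 and 143 FPKM. The means were 317 ± 87.3 and 171 ± 39.3 FPKM (SD, n = 2 each), a KO mean 0.539 times that of WT. The log2 difference was −0.88 (SE 0.24, 95% interval −1.47 to −0.29), at an unadjusted limma p of 0.0109, rank 232 of 9820 genes, and an adjusted p of 0.46.

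Osgin1 was lower in each KO library taken alone, by 0.64 for KO replicate 1 and 1.11 for KO replicate 2 from the WT mean on the log2 scale, both outside the WT range. Against KO replicate 2 alone, in the limma fit without KO replicate 1, it was the one NRF2 gene that passed (adjusted p = 0.0263), where 3.12% of all genes did. Against KO replicate 1 alone it did not pass (adjusted p = 0.294), and 0 of the 10 genes did, where 1.19% of all genes passed. At an unadjusted p under 0.05 the counts were 5 of the 10 against KO replicate 2 (15.4% of all genes) and 2 of the 10 against KO replicate 1 (9.84%). Each of these fits has 1 KO library, which is assumed to vary as the WT libraries do. Leaving out WT replicate 1 gave a difference of −0.60 for Osgin1, and leaving out WT replicate 2 gave −1.16.

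**Figure D3:**
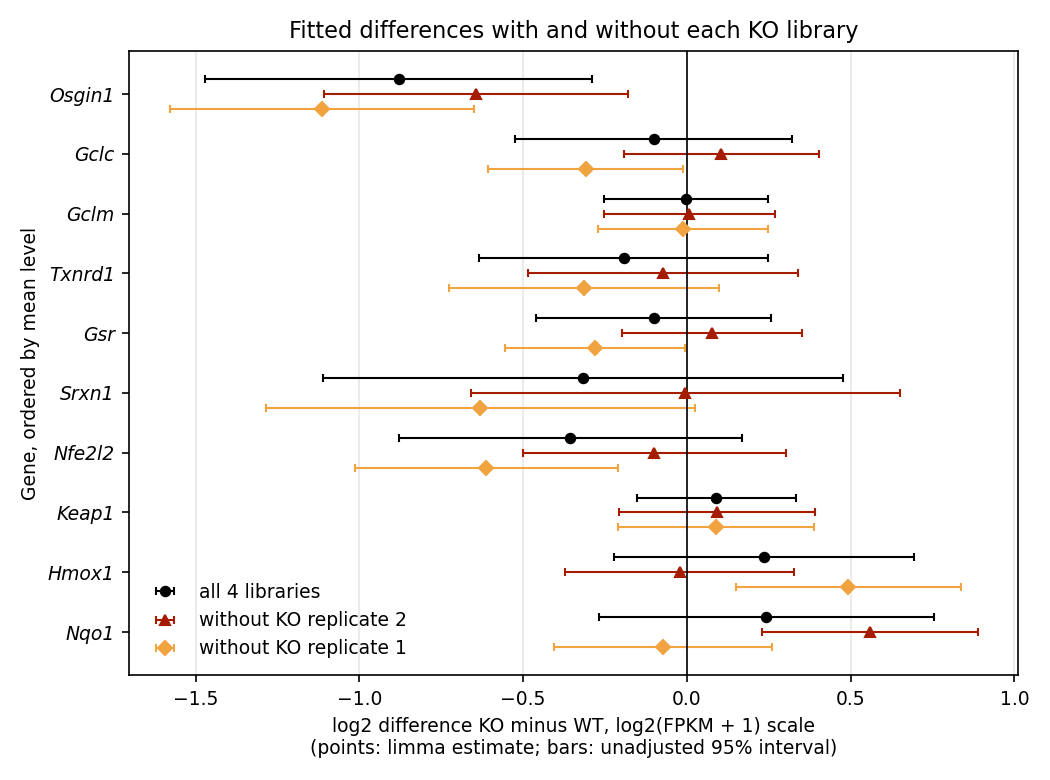
Limma log2 difference KO minus WT of each gene with its unadjusted 95% interval, from all 4 libraries (circles), without KO replicate 2 (triangles) and without KO replicate 1 (diamonds). All 3 intervals of Osgin1 lie below 0, those of Gclm and Keap1 all span 0, and the estimates of Gclc, Gsr, Hmox1, Nqo1 and, by a small margin around 0, Gclm change sign between the fits that hold 1 KO library each.

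A common feature of several genes was that the library numbered 1 was the higher one in each group. This held for 7 of the 10 genes, against 32.1% of all genes tested: Osgin1, Gclc, Txnrd1, Gsr, Srxn1, Nfe2l2 and Keap1. Srxn1 was 0.86 higher in WT replicate 1 than in WT replicate 2 and 0.63 higher in KO replicate 1 than in KO replicate 2 on the log2 scale. For Nfe2l2 these differences were 0.41 and 0.51 and for Osgin1 0.57 and 0.47, while Keap1 differed by only 0.07 and 0.00. The genes of fatty acid synthesis, the known targets of SREBP1c, showed the same placing in 15 of 15 tested genes.

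The remaining targets of NRF2 outside the glutathione S-transferases gave 25 tested of 31 listed genes, 11 positive and 14 negative, with a median of −0.04. None passed in limma, and 3 of the 25 had an unadjusted p under 0.05 (7.75% of all genes). Abcc2, which exports glutathione conjugates into bile, had 54.3 and 49.0 FPKM for WT against 43.3 and 40.1 for KO. Pgd, an NADPH-producing enzyme of the pentose phosphate pathway, had 28.6 and 22.0 for WT against 20.4 and 14.4 for KO. Blvrb, biliverdin reductase B, went the other way with 166 and 170 for WT against 249 and 192 for KO. The list repeated the split between the KO libraries: 16 of 25 genes lay above both WT libraries in KO replicate 1 (39.1% of all genes), and 14 lay below both in KO replicate 2 (33.9% of all genes). Its median differed from the WT mean by 0.13 in KO replicate 1 and −0.27 in KO replicate 2.

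Glutathione S-transferases, which conjugate glutathione to electrophiles and include NRF2 targets, had a median of −0.26 over 19 tested genes. The difference was negative for 17 (45.4% of all genes). None passed the limma threshold, and 1 had an unadjusted p under 0.05 (7.75% of all genes). All 19 lay below both WT libraries in KO replicate 2 (33.9% of all genes), with a median of −0.46. In KO replicate 1, 9 lay above both (39.1% of all genes) and 4 below both (32.8%), with a median of 0.11. Gstp1 had 3355 and 2939 FPKM for WT against 2619 and 1609 for KO, Gstp2 893 and 710 for WT against 766 and 423 for KO, and Gstt3 38.1 and 39.3 for WT against 29.0 and 28.8 for KO. Gstp1 and Gstp2 are near-identical copies, so the division between them is uncertain.

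Other programmes also differed between the KO libraries. KO replicate 1 had a median difference from the WT mean of −0.06 over fasting-response genes and −0.29 over fatty acid synthesis genes. For KO replicate 2 these medians were 0.69 and −0.96. Among the named ones, Angptl4, a lipoprotein lipase inhibitor, had 9.47 and 18.1 FPKM for WT against 17.5 and 46.5 for KO, whereas Pdk4, which restrains glucose oxidation, had 5.15 and 3.11 for WT against 2.15 and 1.62 for KO. Cebpb, an acute phase transcription factor, had 45.9 and 53.5 for WT against 72.0 and 128 for KO. Acacb, the mitochondrial acetyl-CoA carboxylase, had 12.2 and 8.72 for WT against 2.47 and 1.93 for KO (limma adjusted p = 0.0544). The part of these shifts in the NRF2 values was not tested.

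**Figure D4:**
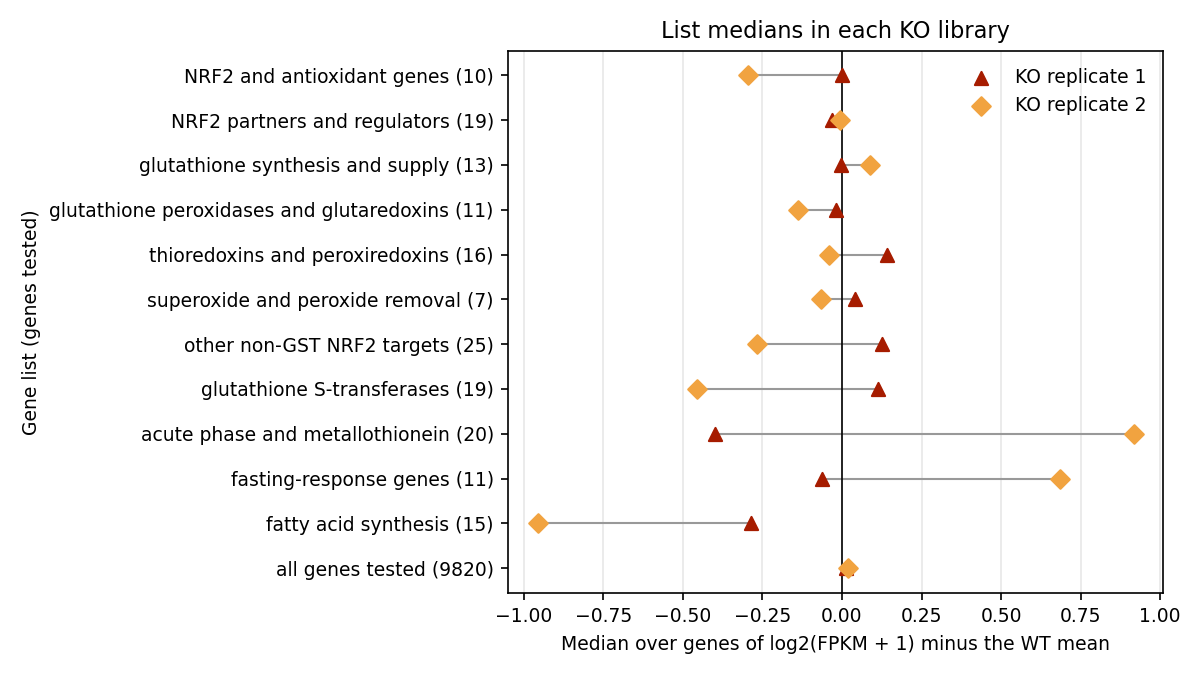
Median over the tested genes of each list of the difference from the WT mean on the log2(FPKM + 1) scale, for KO replicate 1 (triangles) and KO replicate 2 (diamonds), with the number of genes tested in parentheses. The NRF2 genes sit at 0.00 and −0.29, the S-transferases at 0.11 and −0.46, and the acute phase and metallothionein genes are split the other way, at −0.40 and 0.92.

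Markers of other cell types were summed in each library. Hepatocyte markers summed to 42164 and 45694 FPKM for WT against 45231 and 44087 for KO, with a median log2 difference of 0.00. Single markers moved both ways: of 13 tested, 4 lay wholly above the WT pair (22.4% of all genes) and 3 wholly below it (16.4%). Of the listed markers, 10 of 10 endothelial, 10 of 10 stellate cell, 5 of 10 cholangiocyte, 2 of 10 neutrophil and 5 of 10 erythroid genes reached a mean of 1 FPKM. Endothelial markers summed to 66.4 and 69.3 FPKM for WT against 73.1 and 86.5 for KO, stellate cell markers to 89.6 and 99.97 for WT against 102 and 105 for KO, and cholangiocyte markers to 32.8 and 31.1 for WT against 58.6 and 48.7 for KO. Neutrophil markers summed to 9.62 and 12.7 for WT against 6.97 and 25.5 for KO, with Camp and Ltf listed at 0 in every library. No lymphocyte marker reached a mean of 1 FPKM. The bearing of these sums on the NRF2 genes was not tested.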

How the data were processed

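Per the file headers, the authors deposited FPKM values in 1 table, with a row for each RefSeq transcript and a column for each library. The mm10 build, TopHat and Bowtie are named in the submitters' processing notes. How FPKM was computed, on which annotation and with what strand setting is not given in the sources used here. FPKM is no count, so no count test was run. Rows at 0 in all libraries (8874 rows, Alb among them) were read only as listed at 0. The depth of each library was chosen so that low values of genes with 1 row came nearest to whole fragments (GENCODE M21 lengths). At the chosen depths 52.5% to 57.2% of these values lay within 0.1 of a whole fragment. This share is what the choice maximised and is no separate check, so depths are approximate. No pair of libraries held identical values.

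Rows were summed per gene number. The test was limma 3.58.1 under R 4.3.3, with an intensity trend, on log2(FPKM + 1). It covered the 9820 genes that reach a mean of 1 FPKM, and p-values were adjusted by Benjamini-Hochberg over all of these, at a threshold of 0.05. Fold values are ratios of FPKM. The test was also tried on simulated data, with gene means and spread taken from these libraries. Genes, lists and tests were chosen with earlier results of these data known. From each further list up to 3 genes with the smallest p could be named, marker lists are given by their sums, and other names are marked in the text. Positions come from RefSeq genes of GRCm38.p6, matched by gene number for 23847 of 23920 genes. Tables and figures came from matplotlib 3.10.9, pandas 2.3.3 and numpy 2.4.6 under python 3.11.15. Alternatives were other pseudocounts, filters, scalings, variance priors and thresholds, rows as deposited, each library left out and the replicate number as a block.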

Additional observations from a re-analysis of the deposited data

How the results depend on the processing

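All 10 genes stayed short of the threshold under every alternative except Osgin1 without KO replicate 1, so the count of NRF2 genes that passed ran from 0 to 1 with 1 library left out. The count over all genes, 7 in the main analysis, was 11 with a pseudocount of 0.1, 0 without a filter on low values, 3 with a minimum of 5 FPKM, 4 with quantile normalization and 15 with a robust variance prior. With 1 library left out it ran from 1 without WT replicate 1 to 306 without KO replicate 1, and was 117 without KO replicate 2 and 4 without WT replicate 2. The median of the NRF2 genes in KO replicate 2 ran from −0.37 without WT replicate 2 to −0.14 without WT replicate 1. Directions turned only when 1 library was left out. Nqo1 then took −0.073 as its lowest value (without KO replicate 1) and 0.56 as its highest (without KO replicate 2), Gclc −0.31 and 0.11 for the same omissions (0.0071 without WT replicate 1), and Gclm −0.012 and 0.0074 (0.0053 without WT replicate 2). Hmox1 took 0.49 without KO replicate 1 and −0.022 without KO replicate 2, Gsr −0.28 and 0.076, Srxn1 from −0.75 without WT replicate 2 to 0.11 without WT replicate 1, and Txnrd1 from −0.42 to 0.034 without the same libraries. Osgin1 was −1.11 without KO replicate 1 and stayed between −1.16 and −0.60 over all alternatives, with adjusted p from 0.0263 to 0.9996. The cause of these changes was not tested. Of 154 medians of lists under the alternatives, 12 moved by more than the spread between replicates. The 154 include fits without an intensity trend, with a robust variance prior and with the replicate block. Those fits leave each log2 difference as it was, so their medians could not move. The labels give no meaning to the replicate numbers. Deviations of same-numbered libraries correlated at 0.168 across genes, over only 2 pairs. With the replicate number as a block, 19 genes passed and 0 of the 10 NRF2 genes did, with adjusted p = 0.0868 for Osgin1 and 0.319 for Nfe2l2. Depth limits Nqo1 and Hmox1 most, the least abundant of the genes.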
